A study of Mus musculus with 11 samples.

Results

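The tumour necrosis factor (TNF) superfamily genes described here are 5 ligand genes, Tnf, Lta, Ltb, Tnfsf11 and Cd40lg, and 5 receptor genes, Tnfrsf1a, Tnfrsf1b, Tnfrsf9, Tnfrsf25 and Cd27. They were taken by gene symbol from a table of 35814 symbols, and all 10 were found in it. The table held 11 bulk RNA-seq libraries of CD4+ T cells sorted from mouse kidneys 2 days after ischemia-reperfusion injury (IRI), in which the renal blood supply is clamped on both sides and then released. The libraries came from young adult male mice on the C57BL/6 background in 3 groups. The control group was CD4cre (labelled WT, n = 3), in which the Cre recombinase is expressed under the Cd4 promoter. CD4IKK1Δ mice (labelled IKK1 knockout, n = 5) have in addition floxed Chuk, which encodes the kinase IKK1. CD4NIKΔ mice (labelled NIK knockout, n = 3) have instead floxed Map3k14, which encodes the kinase NIK. All 3 groups carry CD4cre and all had IRI, so every comparison is between genotypes in injured kidneys, and no library from an uninjured kidney was analysed here. Cre driven by the Cd4 promoter is active from thymocyte development, so it also acts in cells that later become CD8+ T cells.

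TNF superfamily ligands are made mostly as proteins of the cell surface that assemble into trimers and bind receptors on neighbouring cells. NIK and IKK1 form the core of the non-canonical NFκB pathway, which is switched on in cells carrying receptors such as the lymphotoxin β receptor, CD40 and RANK. T cells are a main source of the ligands for these 3 receptors, namely the lymphotoxins (Lta and Ltb), CD40 ligand (Cd40lg) and RANKL (Tnfsf11). The receptors 4-1BB (Tnfrsf9), DR3 (Tnfrsf25) and CD27 are costimulatory receptors of T cells, while TNFR1 (Tnfrsf1a) is found on most cell types and TNFR2 (Tnfrsf1b) is prominent on regulatory T cells. The question behind the comparisons was how loss of IKK1 or of NIK in T cells changes their transcripts in the injured kidney.

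On mouse build GRCm39, 3 of the ligand genes lie next to each other on chromosome 17. Ltb spans chr17:35413382-35415296 on the plus strand, Tnf spans chr17:35418357-35420983 on the minus strand and Lta spans chr17:35422141-35424327 on the minus strand. Tnfrsf9 (chr4:150999019-151030559) and Tnfrsf25 (chr4:152200391-152205299) share chromosome 4 with Tnfrsf1b (chr4:144938938-144973477). Cd27 (chr6:125209585-125213988) and Tnfrsf1a (chr6:125325566-125339632) share chromosome 6. Tnfsf11 lies at chr14:78514885-78545490 and Cd40lg at chrX:56257405-56269902.

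RefSeq gave 11 start sites for 9 of the 10 genes, and the 250 bases before each were searched on both strands for the NFκB consensus. A match was found before 3 of the 11 starts, and 7.25% of 32851 such windows of all genes held one. The stretches below (build GRCm38.p6, plus strand, 5′ to 3′) are shown because they hold these matches, which are in capitals. The Tnfrsf25 and Tnfrsf9 stretches lie before the second of the 2 starts listed for each gene.
Ltb, chr17:35194410-35194439: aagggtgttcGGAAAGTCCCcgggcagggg
Tnfrsf9, chr4:150927946-150927975: cagagcagctGGGGATTTCCCaggaggccc
Tnfrsf25, chr4:152116305-152116334: aaaggggtctGGGGGCCTCCacttctcaga
The matches lie at -87 to -78 of Ltb, at -43 to -33 of Tnfrsf9, where matches on both strands overlap, and at -28 to -19 of Tnfrsf25, counted from the RefSeq start. Tnfsf11, the member with the largest fold difference between groups, held no match in its window. Its bases -250 to -51 (GRCm38.p6, minus strand, 5′ to 3′) are shown for that reason.
Tnfsf11, chr14:78308094-78308293: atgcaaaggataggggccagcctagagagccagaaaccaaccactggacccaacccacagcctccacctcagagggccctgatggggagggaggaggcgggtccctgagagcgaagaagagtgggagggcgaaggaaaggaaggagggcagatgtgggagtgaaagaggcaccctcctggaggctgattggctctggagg
A match describes letters in a window and not a bound site. The windows of Tnf, Lta, Tnfrsf1a, Tnfrsf1b and Cd27 held no match either.

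Library totals lay between 15751632 and 25737046 estimated counts, so 3 counts correspond to 0.115 to 0.211 CPM (counts scaled to a common library total). The libraries differed in how much T cell transcript they held. Summed over 16 Pan T markers (genes shared by T cells, such as those of the CD3 complex, left without Thy1, whose counts were about level over the libraries), they held 33111 to 81605 counts in CD4cre, 270 to 25433 in CD4IKK1Δ and 154632 to 234649 in CD4NIKΔ. CD4IKK1Δ replicates 1 and 2 stood apart with 270 and 2943 of these counts, and Cd4 itself had 32 and 138 counts there, against 379 to 7775 in the other 9 libraries. Neuronal transcripts, which do not belong to T cells, were abundant in all 11 libraries, at 2500 to 2940 summed CPM over 9 genes in CD4cre, 3140 to 3850 in CD4IKK1Δ and 853 to 1740 in CD4NIKΔ. The deleted genes did not separate the groups as labelled. Chuk had 258 to 588 counts in CD4IKK1Δ against 325 to 683 in CD4cre, and Map3k14 had 232 to 626 counts in CD4NIKΔ against 294 to 506 in CD4cre. Map3k14 was lowest in CD4IKK1Δ, at 29 to 186 counts, below every library of the other groups. Counts per gene do not resolve the floxed exons, so they do not check the deletions. In such bulk libraries, fewer T cells and less RNA per T cell cannot be told apart. Member levels are therefore given as CPM and also as counts per 1000 of the 16 Pan T marker counts.

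Ltb was the predominant member. It took 59.9% to 96.2% of all member counts in 10 of the 11 libraries, and 27.3% in CD4IKK1Δ replicate 1, where the 10 genes together had 11 counts. In CPM per kilobase of transcript, the medians in CD4cre ran from Ltb (497) through Cd40lg (17.8), Lta (12.2), Tnfrsf25 (8.27), Cd27 (5.04), Tnfrsf9 (4.84) and Tnfsf11 (1.51) to Tnfrsf1a (0.203). Ltb was separated from all others, with a lowest CD4cre library at 345, while the ranges of each neighbouring pair from Cd40lg down to Tnfsf11 overlapped. In CD4NIKΔ the first 4 places were the same, and Tnfsf11 had a median of 28.6 CPM per kilobase, with a range of 27.1 to 37.4 that overlapped those of Tnfrsf9 (25.5 to 34.6) and Tnfrsf25 (29.6 to 55.8). In CD4IKK1Δ the order again began with Ltb (32.6), Cd40lg (3.65), Lta (1.99) and Tnfrsf25 (1.19), with ranges that overlapped from each place to the next.

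**Figure D1:**
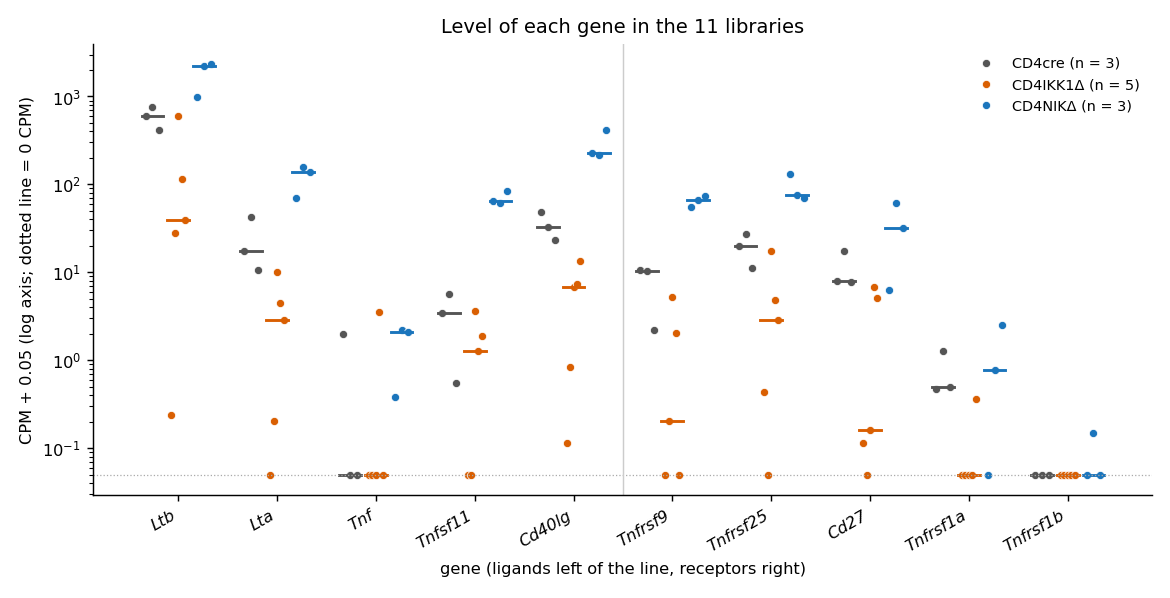
Level of the 10 genes in each library as CPM + 0.05 on a log axis, with 1 point per library, bars at the group medians and the dotted line at 0 CPM. For Ltb, Lta, Tnfsf11, Cd40lg, Tnfrsf9 and Tnfrsf25 all 3 CD4NIKΔ points lie above all CD4cre and CD4IKK1Δ points, and Tnfrsf1b lies at or near 0 throughout.

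The comparison of CD4NIKΔ with CD4cre asked which genes differ when NIK is lost. Of the 10 members, 9 had enough counts to be tested and 6 rose in CD4NIKΔ, namely the ligands Lta, Ltb, Tnfsf11 and Cd40lg and the receptors Tnfrsf9 and Tnfrsf25. A gene counts as risen or fallen where the adjusted p of edgeR's quasi-likelihood test was under 0.05 and the difference over 2-fold. Over all 15209 genes tested, 10.4% rose by this rule and 6.99% fell. The 9 members' median log2 fold change was 2.25, beside -0.02 over all genes. For the 6 that rose, every CD4NIKΔ library was above every CD4cre library, which held upwards for 23% of all genes tested. In a fit of all 11 libraries, in which CD4IKK1Δ adds to the shared estimate of the spread, none of the 9 members passed the test while 5.23% of all genes rose, with Tnfsf11 nearest to it (log2 4.44 ± 1.39 SE, edgeR adjusted p = 0.0502) and Cd40lg next (3.03 ± 1.13, 0.0952).

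Tnfsf11 encodes RANKL, the ligand of RANK, best known for its role in osteoclast formation and in lymph node development. It was at 3.39, 5.69 and 0.501 CPM in the CD4cre libraries and at 64.1, 60.8 and 83.9 CPM in the CD4NIKΔ libraries. The lowest CD4NIKΔ library was thus far above the highest CD4cre library. The fold change was 21.5 (log2 4.43 ± 0.70 SE, edgeR adjusted p = 0.00773), and omitting any 1 library kept the log2 value within 3.95 to 5.15 (the latter without CD4cre replicate 2). Cd40lg, whose product activates B cells, dendritic cells and macrophages through CD40, was at 48.5, 32.9 and 23.1 CPM in CD4cre and at 226, 216 and 415 CPM in CD4NIKΔ. It rose 8.1-fold (log2 3.02 ± 0.36 SE, edgeR adjusted p = 0.00339) and the groups were well separated.

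The lymphotoxin genes encode the soluble homotrimer (Lta) and, with Ltb, the membrane heterotrimer that binds the lymphotoxin β receptor. Lta was at 17.3, 42.7 and 10.7 CPM in CD4cre and at 70.8, 159 and 140 CPM in CD4NIKΔ, a log2 difference of 2.37 ± 0.52 SE (edgeR adjusted p = 0.0212). Ltb was at 602, 756 and 418 CPM in CD4cre and at 989, 2250 and 2310 CPM in CD4NIKΔ, a log2 difference of 1.62 ± 0.35 SE (edgeR adjusted p = 0.0208). Both rose with a smaller margin between the groups than Tnfsf11 and Cd40lg. Either call was lost without CD4cre replicate 3, without CD4NIKΔ replicate 2 or without CD4NIKΔ replicate 3, with adjusted p up to 0.0772 for Lta and 0.0766 for Ltb. Without CD4cre replicate 2 the value for Lta was 3.15.

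Among the receptors, Tnfrsf9 (4-1BB, induced on activated T cells) was at 10.5, 10.4 and 2.15 CPM in CD4cre and at 54.8, 65.8 and 74.4 CPM in CD4NIKΔ. It rose by 3.06 ± 0.54 (SE) on the log2 scale (edgeR adjusted p = 0.0108). Tnfrsf25 (DR3, the receptor of TL1A) was at 19.7, 27.2 and 11.2 CPM in CD4cre and at 133, 76.5 and 70.6 CPM in CD4NIKΔ, and rose by 2.25 ± 0.39 on that scale (edgeR adjusted p = 0.0102). The groups did not overlap for either gene, and both calls held whichever library was omitted. Cd27, the receptor of CD70, was at 7.93, 17.6 and 7.66 CPM in CD4cre and at 6.30, 61.0 and 31.9 CPM in CD4NIKΔ. These groups overlapped, because CD4NIKΔ replicate 1 was below all CD4cre libraries, and the difference did not pass the test (log2 1.55 ± 0.71 SE, edgeR adjusted p = 0.152). Without that library it did (log2 2.07).

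The other 3 members were at the edge of detection. Tnf, the name-giving cytokine, had 51, 0 and 0 counts in CD4cre and 6, 44 and 29 in CD4NIKΔ, with a log2 difference of 1.17 ± 1.65 SE that did not pass the test (edgeR adjusted p = 0.642). The value was 7.81 and passed the test without CD4cre replicate 1, the only CD4cre library with Tnf counts. Tnfrsf1a had 11, 25 and 9 counts in CD4cre and 0, 15 and 35 in CD4NIKΔ (log2 0.58 ± 1.34 SE, edgeR adjusted p = 0.782), and its value turned to -0.89 without CD4NIKΔ replicate 3. Tnfrsf1b had 2 counts in CD4NIKΔ replicate 2 and was listed at 0 in the other 10 libraries, which at this depth allows a level of up to 0.115 to 0.211 CPM (3 counts, counting error only). It was not tested.

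The T cell content moved with these differences. Of 17 Pan T markers, 13 rose in CD4NIKΔ and none fell, with a median log2 fold change of 2.00, close to the members' median. Summed B cell markers lay between 196 and 664 CPM in CD4NIKΔ and between 68.1 and 141 in CD4cre over 8 genes, and summed CD8 and NK markers between 115 and 160 against 13.7 and 33.2 over 8 genes. In CD4NIKΔ Pax5 was at 3 counts or fewer in every library, as was Klra8. Summed endothelial markers were higher without overlap as well, at 23.5 to 51.4 CPM in CD4NIKΔ against 15.9 to 21.4 in CD4cre over 5 genes, whereas the myeloid and dendritic and the kidney tubule sums overlapped. Of the 9 neuronal genes 7 fell. The part of these other transcripts in the members' differences was not tested.

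**Figure D2:**
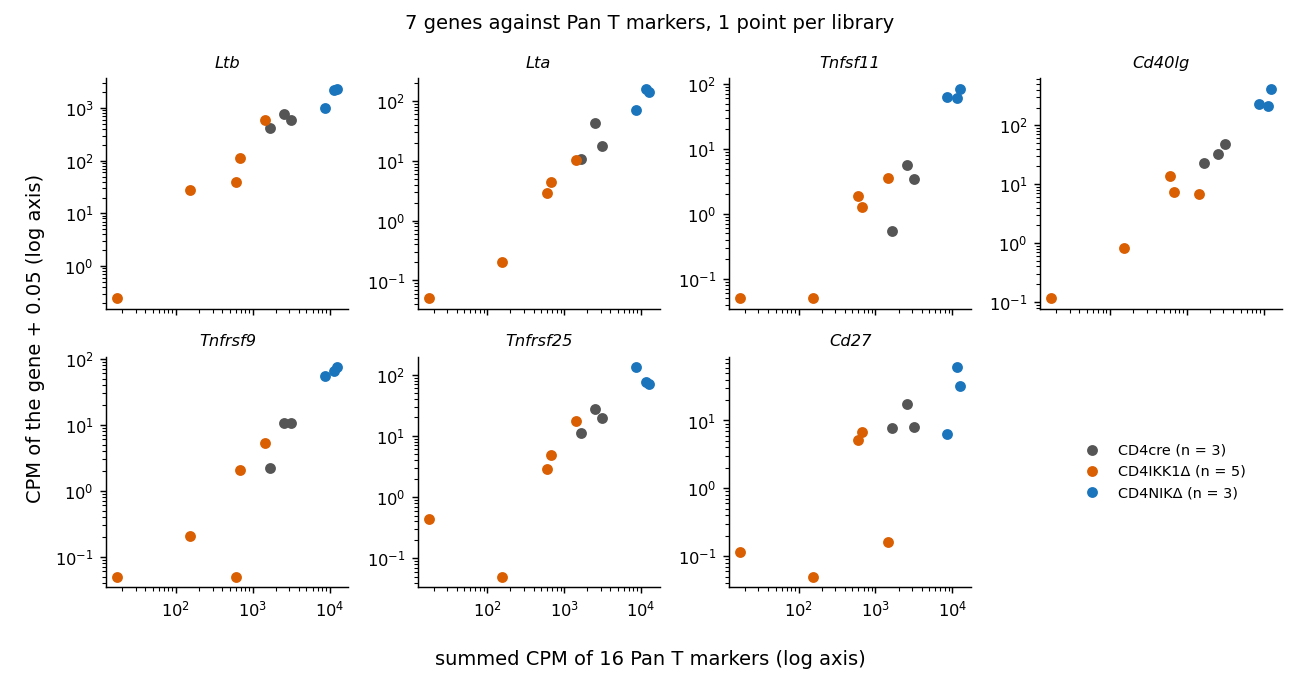
CPM + 0.05 of 7 genes against the summed CPM of 16 Pan T markers, both on log axes, with 1 point per library and colours for the groups. In all 7 panels the CD4IKK1Δ libraries with the fewest Pan T counts lie at the lower left, and in the Tnfsf11 panel the 3 CD4NIKΔ points lie between 60.8 and 83.9 CPM while the highest of the others is at 5.69 CPM.

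Read against T cell transcripts, the members divided. Tnfsf11 was at 1.08, 2.23 and 0.302 counts per 1000 Pan T counts in CD4cre and at 7.43, 5.28 and 6.64 in CD4NIKΔ. It was the only member still called once the 16 Pan T markers set the scale of each library (log2 2.41 ± 0.63 SE, edgeR adjusted p = 0.00448). Under that scaling, chosen after seeing the data, 0.717% of all genes tested rose and the median over all genes was -2.21 (log2).

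Cd40lg was at 15.4, 12.9 and 14.0 counts per 1000 Pan T counts in CD4cre and at 26.2, 18.7 and 32.8 in CD4NIKΔ. The scaled difference was 0.88 on the log2 scale (edgeR adjusted p = 0.0524), which is under 2-fold and was not called. Tnfrsf9 was at 3.36, 4.08 and 1.30 per 1000 in CD4cre and at 6.36, 5.71 and 5.89 in CD4NIKΔ, with a scaled log2 difference of 1.03 (edgeR adjusted p = 0.0771). For both genes the groups did not overlap on this scale, but the share of all genes without overlap was not determined on it.

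Lta, Ltb, Tnfrsf25 and Cd27 overlapped between the groups per 1000 Pan T counts. Ltb, for example, was at 192, 296 and 252 in CD4cre and at 115, 195 and 183 in CD4NIKΔ. Their scaled log2 differences were 0.21 for Lta, -0.59 for Ltb, 0.22 for Tnfrsf25 and -0.72 for Cd27, and the rise of Ltb in CPM thus turned to a lower value. The design cannot separate a change within T cells from a change in which T cells were captured.

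**Figure D3:**
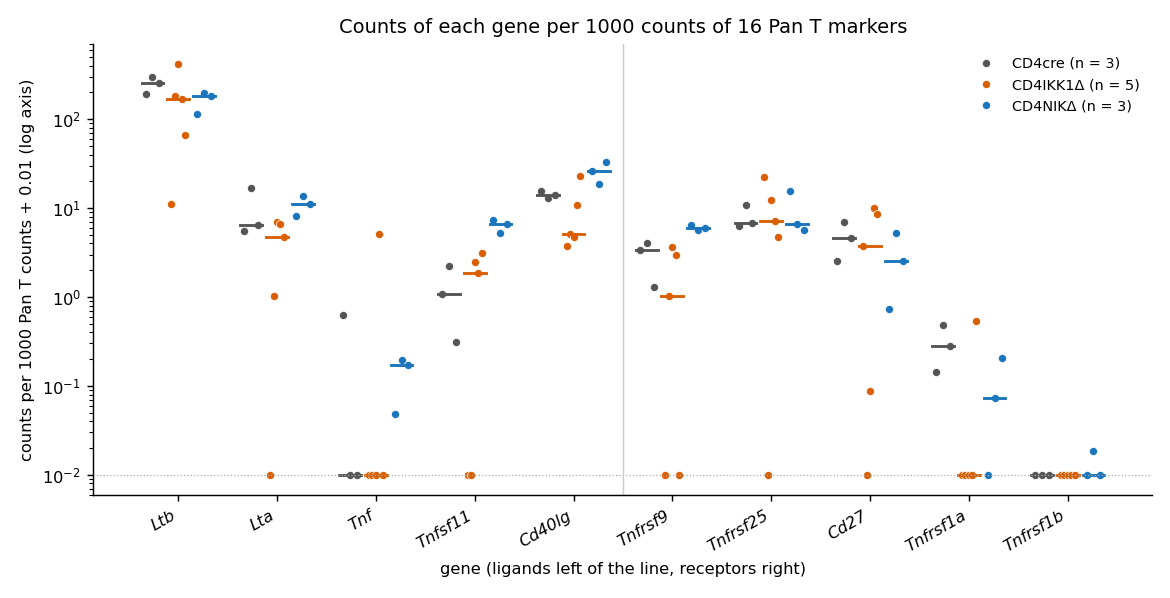
Counts of the 10 genes per 1000 counts of 16 Pan T markers, plus 0.01, on a log axis, with 1 point per library and bars at the group medians. Tnfsf11, Cd40lg and Tnfrsf9 keep all 3 CD4NIKΔ points above all 3 CD4cre points, whereas Ltb, Lta, Tnfrsf25 and Cd27 overlap. The share of all genes without overlap was not determined on this scale.

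The comparison of CD4IKK1Δ with CD4cre asked the same for loss of IKK1. No member passed the test, and none of the 15653 genes tested did (0% called, edgeR's quasi-likelihood test). All 7 members with enough counts to be tested had a lower fitted level in CD4IKK1Δ, beside 48.7% of all genes, with a median log2 fold change of -2.19 beside 0.02. At an unadjusted p under 0.05 there were 2592 genes, of which 1 member, Cd40lg, was lower, as were 8.91% of all genes. DESeq2 called 552 genes (4.76% of those it tested), 511 of them lower, and no member was among them.

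Cd40lg was at 0.064, 0.786, 6.75, 7.40 and 13.6 CPM in the CD4IKK1Δ libraries, all below the CD4cre range of 23.1 to 48.5 CPM. Its log2 difference was -2.60 ± 1.08 SE (edgeR adjusted p = 0.287). Lta was at 0, 0.157, 10.1, 4.42 and 2.83 CPM in CD4IKK1Δ and Cd27 at 0.064, 0, 0.113, 6.80 and 5.08 CPM. For these 3 genes, and for Tnfrsf1a with too few counts for the test, every CD4IKK1Δ library was below every CD4cre library, which held downwards for 8.44% of all genes tested. The log2 difference was -2.75 ± 1.30 SE for Lta (edgeR adjusted p = 0.337) and -2.19 ± 1.47 SE for Cd27 (edgeR adjusted p = 0.515). Per 1000 Pan T counts, no member was lower without overlap. On that scale Cd40lg was at 3.7 to 22.7 in CD4IKK1Δ against 12.9 to 15.4 in CD4cre, and Cd27 at 0 to 10.0 against 2.52 to 6.91.

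The remaining members overlapped between the groups. Ltb spread over 0.192, 28.2, 594, 115 and 39.5 CPM, so that CD4IKK1Δ replicate 3 reached the CD4cre range of 418 to 756 CPM (log2 -1.93 ± 1.57 SE, edgeR adjusted p = 0.62). Without that library the value was -3.69 (adjusted p = 0.279). Tnfsf11 was at 0, 0, 3.57, 1.24 and 1.84 CPM, within or below its low CD4cre range. Tnfrsf9 was at 0, 0.157, 5.22, 1.99 and 0 CPM and Tnfrsf25 at 0.384, 0, 17.6, 4.86 and 2.83 CPM. For each of these genes replicate 3, the CD4IKK1Δ library with the most Pan T counts, was the highest, and replicates 1 and 2 were among the lowest. Without replicate 3 the log2 difference was -3.82 for Tnfrsf9 and -3.25 for Tnfrsf25, in place of -2.39 and -1.92, and neither passed the test.

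Tnf had 70 counts in CD4IKK1Δ replicate 4 and was listed at 0 in the other 4 libraries, and Tnfrsf1a had 7 counts in replicate 5 and was likewise at 0 in the others. Without replicates 1 and 2 again no member passed the test, and the log2 difference was -1.91 for Cd40lg (edgeR adjusted p = 0.116) and -0.53 for Tnfsf11. Scaled to the 16 Pan T markers, the log2 differences of the 7 tested members lay between -1.22 (Lta) and 0.47 (Tnfsf11) with SEs of 1.68 to 1.87, so neither equal nor unequal levels within T cell transcripts were shown. Tnfsf11 and Tnfrsf25 (0.17) turned to positive values on that scale, on which the median over all genes was 4.87. Of the 17 Pan T markers 16 had lower fitted levels in CD4IKK1Δ and none passed the test, with a median log2 fold change of -2.04. Summed markers of other cell types were also lower without overlap, at 109 to 274 CPM in CD4IKK1Δ against 454 to 1930 in CD4cre for 18 myeloid and dendritic genes, 0.768 to 8.34 against 13.7 to 33.2 for 8 CD8 and NK genes, and a median of 14.4 (lowest 4.93) against 101 (68.1 to 141) for 8 B cell genes. The same held for 10 kidney tubule genes (6.55 to 10.3 against 19.3 to 84.7 CPM) and 5 endothelial genes (8.17 to 14.0 against 15.9 to 21.4 CPM). The 9 neuronal genes went the other way without overlap (3140 to 3850 against 2500 to 2940 CPM). The part of these transcripts in the members' levels was not tested.

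CD4IKK1Δ and CD4NIKΔ were compared in a fit of all 11 libraries, which is also the test of whether the differences of both genotypes from CD4cre differ. Of the 9 members tested, 5 were lower in CD4IKK1Δ, beside 18.5% of all 16546 genes tested. They were Tnfsf11 (log2 -5.69 ± 1.19 SE, edgeR adjusted p = 0.00353), Cd40lg (-5.63 ± 1.03, 0.00198), Tnfrsf9 (-5.46 ± 1.34, 0.00859), Lta (-5.13 ± 1.18, 0.00661) and Tnfrsf25 (-4.18 ± 1.20, 0.0192). The call of Tnfrsf25 was lost without CD4NIKΔ replicate 1 (adjusted p = 0.057). Without CD4IKK1Δ replicate 3 the values were -6.43 for Tnfsf11, -6.88 for Tnfrsf9, -6.02 for Lta and -5.50 for Tnfrsf25, and without replicate 5 that of Cd40lg was -6.24. Ltb (-3.57 ± 1.40) did not pass edgeR's test (adjusted p = 0.0674), although every CD4IKK1Δ library was below every CD4NIKΔ library. This separation was seen for 6 members and downwards for 24.6% of all genes tested. Summed markers of the other cell types also did not overlap between these groups. They were lower in CD4IKK1Δ for myeloid and dendritic (109 to 274 against 661 to 1010 CPM), CD8 and NK (0.768 to 8.34 against 115 to 160), kidney tubule (6.55 to 10.3 against 14.3 to 94.5), endothelial (8.17 to 14.0 against 23.5 to 51.4) and B cell genes (median 14.4 against 656), and the neuronal sums given above were higher. Their part in the members' differences was not tested.

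Cd27 (log2 -3.76 ± 1.42 SE), Tnfrsf1a (-3.87 ± 1.66) and Tnf (-1.11 ± 2.06) did not pass the test either. The CD4IKK1Δ counts behind these values came from replicate 5 alone for Tnfrsf1a (7 counts) and from replicate 4 alone for Tnf (70 counts). DESeq2 called Ltb and Cd27 in addition, with adjusted p of 0.0194 and 0.0336, beside 20.2% of all genes that it called lower. Without CD4IKK1Δ replicates 1 and 2 the count was 6 (17.1% of all genes were lower), Ltb included (log2 -2.88, edgeR adjusted p = 0.0187), and Cd40lg differed by -4.94. Scaled to the 16 Pan T markers, no member was called (0.332% of all genes were lower), and the log2 differences shrank to -1.94 for Tnfsf11, -1.43 for Cd40lg and -0.06 for Tnfrsf25, while the median over all genes moved to 7.06. When instead all 17 Pan T markers, Thy1 included, set the scale, 4 members were called lower beside 0.786% of all genes, namely Cd40lg (log2 -1.90, edgeR adjusted p = 0.0153), Tnfsf11 (-2.31, 0.0350), Tnfrsf9 (-2.21, 0.0392) and Lta (-1.75, 0.0442). Thy1 made up 3158 of the 3428 counts of this scale in CD4IKK1Δ replicate 1 and 3157 of 6100 in replicate 2. In CD4NIKΔ replicate 1 it made up 1919 of 156551. Thy1 thus weighed far more in those CD4IKK1Δ libraries, so these calls are not levels relative to the other 16 markers. With that scale and without CD4IKK1Δ replicates 1 and 2, Tnfsf11 (-1.64, edgeR adjusted p = 0.0421) and Cd40lg (-1.31, 0.0251) were called lower, as was 1% of all genes.

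**Figure D4:**
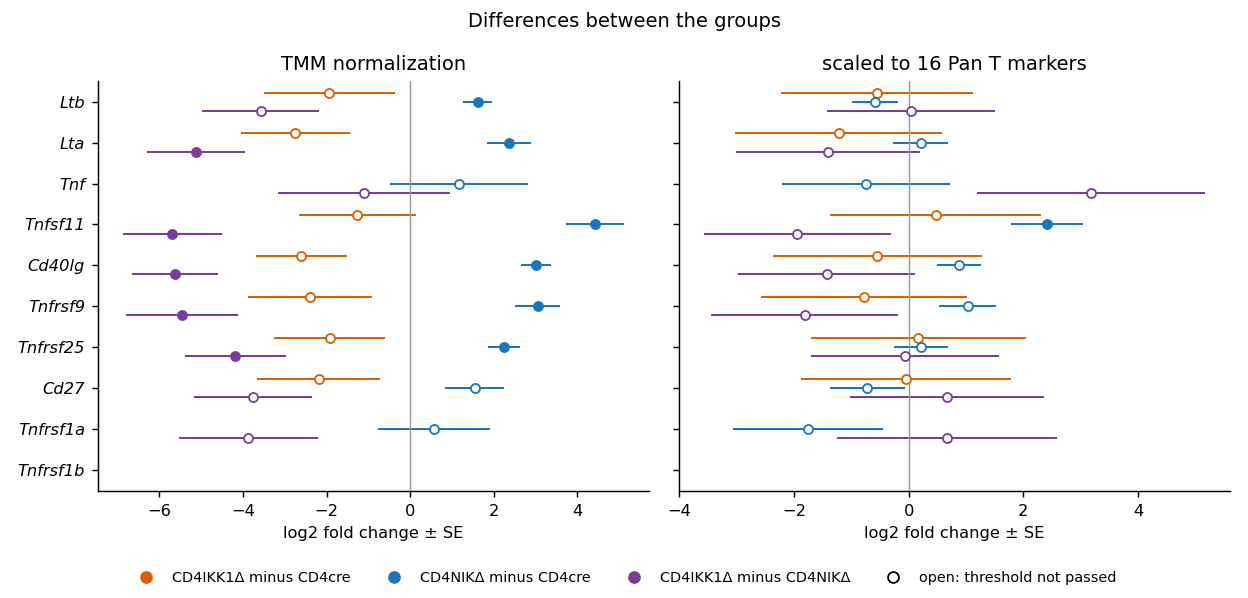
Log2 fold change ± SE of each tested gene in the 3 comparisons, on the left with TMM normalization and on the right with the libraries scaled to 16 Pan T markers, where filled points passed the threshold. On the left 6 blue and 5 purple points are filled, and on the right only Tnfsf11 in CD4NIKΔ minus CD4cre is, at 2.41.

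The wider superfamily was described by a list of 18 ligands and 28 receptors that includes the members. In CD4NIKΔ against CD4cre, 9 of the 15 tested ligands rose, 6 of the 21 tested receptors rose and 1 receptor fell, beside 10.4% of all genes that rose and 6.99% that fell. Tnfrsf13b, which encodes TACI, a receptor of BAFF and APRIL best known from B cells, was at 4.59 ± 4.12 CPM (SD, n = 3) in CD4cre and at 32.9 ± 8.43 CPM (n = 3) in CD4NIKΔ, a log2 difference of 2.82 ± 0.78 SE (edgeR adjusted p = 0.0377). This call was lost without CD4cre replicate 3 or without any 1 of the CD4NIKΔ libraries (adjusted p up to 0.119), the value was 3.69 without CD4cre replicate 1, and scaled to the 16 Pan T markers it was 0.68 (adjusted p = 0.406). The receptor that fell, named after its values were seen, was Tnfrsf21 (death receptor 6), at 43.8, 61.5 and 66.4 CPM in CD4cre and at 36.4, 20.1 and 14.0 CPM in CD4NIKΔ. Its call was lost without replicate 2 or 3 of either group (adjusted p up to 0.138). Tnfrsf21 was also at 60.2 CPM in CD4IKK1Δ replicate 1, the library with 270 Pan T counts, and the cell source of its transcripts was not tested. Scaled to the 16 Pan T markers, which moves every gene down alike, 1 of the 36 tested superfamily genes was higher and 12 were lower, beside 0.717% and 69.5% of all genes, and their median log2 fold change was -0.83 beside -2.21.

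Of 18 adaptors and regulators that act downstream of these receptors, 8 rose in CD4NIKΔ and 1 fell, beside 10.4% and 6.99% of all genes. Tank, a TRAF-binding regulator of NFκB, rose from 27.0, 33.8 and 18.8 CPM in CD4cre to 194, 150 and 234 CPM in CD4NIKΔ, a log2 difference of 2.85 ± 0.29 SE (edgeR adjusted p = 0.0023). Map3k7, which encodes the kinase TAK1, fell by 3.40 ± 0.83 (SE) on the log2 scale (edgeR adjusted p = 0.0264), from 3.04, 1.94 and 10.3 CPM in CD4cre to 0.446, 0.442 and 0.564 CPM in CD4NIKΔ. It had 8 or 9 counts in each CD4NIKΔ library. The call was lost without CD4cre replicate 3 (log2 -2.34, adjusted p = 0.117) and without CD4NIKΔ replicate 2 or 3. Scaled to the 16 Pan T markers, none of the 18 was called higher, with Tank at 0.70 (adjusted p = 0.119), and 6 were called lower beside 69.5% of all genes, with a median log2 fold change of -0.89 beside -2.21.

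In CD4IKK1Δ against CD4cre none of 34 superfamily genes tested passed edgeR's test. An unadjusted p under 0.05 was found for 6 of them, beside 16.6% of all genes, and 28 had lower fitted levels, beside 48.7%. DESeq2 called 2 of the 23 it tested lower, Tnfrsf18 (GITR, log2 -2.14) and Tnfrsf26 (log2 -1.60), beside 4.41% of all genes. None of the 18 adaptors and regulators passed edgeR's test, all 18 had lower fitted levels, 7 had an unadjusted p under 0.05, and their median log2 fold change was -0.91. Scaled to the 16 Pan T markers, 17 of the 18 adaptors and 24 of the 34 superfamily genes had higher fitted levels and none was called, with medians of 3.53 and 2.00 beside 4.87 over all genes. DESeq2 called 3 of the 17 it tested lower, Traf4 (log2 -2.78, adjusted p = 0.000322), Birc3 (-1.87, 0.00517) and Map3k14 (-1.59, 0.0155). Without CD4IKK1Δ replicates 1 and 2, edgeR called 1 lower, Tnfaip3 (A20, log2 -1.73, adjusted p = 0.0342), beside 0.239% of all genes. Of these genes all but Map3k14 were named after their values were seen, as were Tnfrsf18 and Tnfrsf26.

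In CD4IKK1Δ against CD4NIKΔ, 16 of 39 superfamily genes and 13 of 18 adaptors and regulators were lower, beside 18.5% of all genes, and 2 receptors, Tnfrsf19 and Tnfrsf21 (named after their values were seen), were higher, beside 14.8% of all genes. Both of these calls were lost without CD4NIKΔ replicate 3, and that of Tnfrsf19 also without replicate 2. In CD4IKK1Δ replicate 1, with 270 Pan T counts, Tnfrsf19 was at 22.5 CPM and Tnfrsf21 at 60.2 CPM. The cell source of these transcripts was not tested. Scaled to the 16 Pan T markers, none was lower, and 16 of the superfamily genes and 13 of the adaptors and regulators were higher, beside 86.1% of all genes. In CPM, Tnfrsf13b had the largest difference (log2 -5.72 ± 1.04 SE, edgeR adjusted p = 0.00112). Fasl, the death ligand of cytotoxic and activated T cells, was at 0, 0.0524, 4.71, 5.46 and 16.3 CPM in CD4IKK1Δ and at 324, 135 and 214 CPM in CD4NIKΔ (log2 -5.38 ± 1.28 SE, edgeR adjusted p = 0.00789). Casp8, the initiator caspase of death receptors, was at 0 to 11.8 CPM in CD4IKK1Δ and at 145 to 203 CPM in CD4NIKΔ (log2 -5.33 ± 1.05 SE, edgeR adjusted p = 0.00293).

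**Figure D5:**
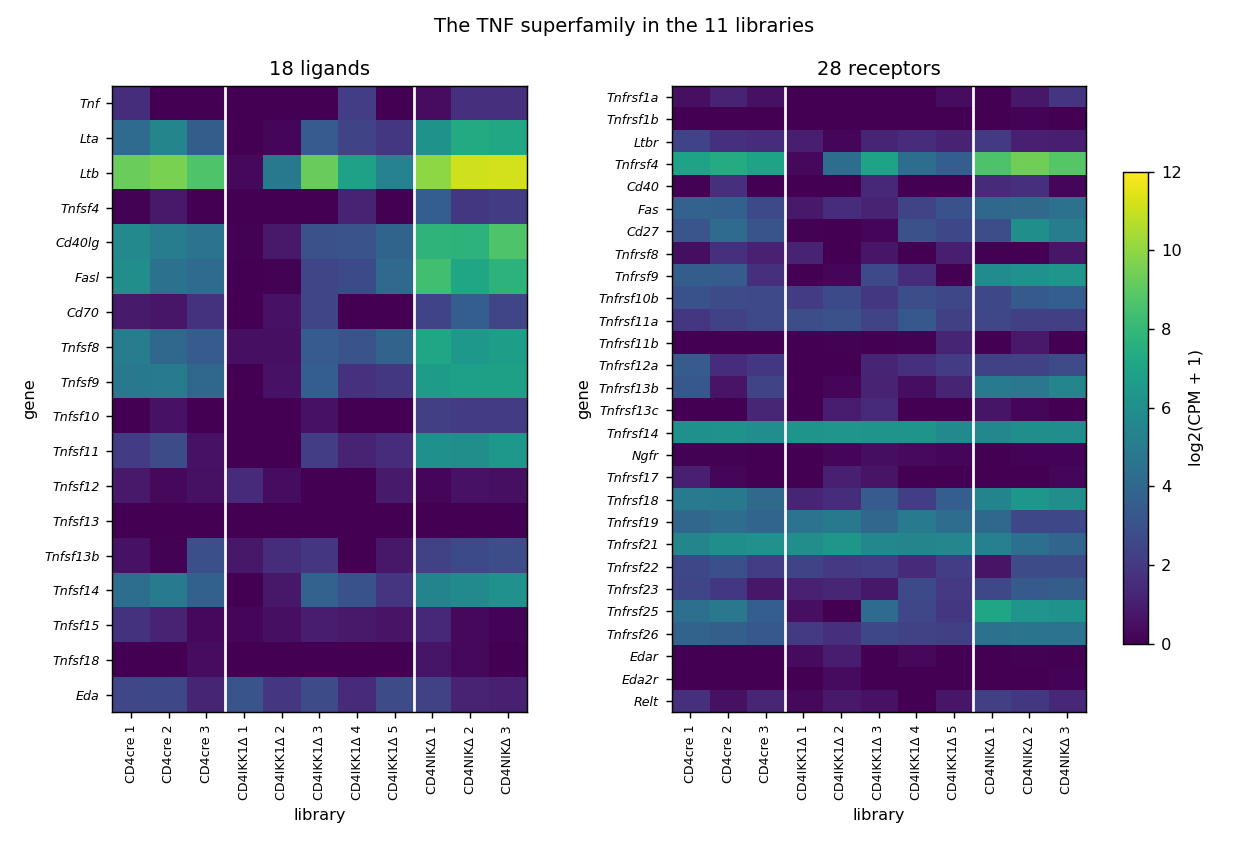
Level of 18 ligands and 28 receptors of the superfamily in the 11 libraries as log2(CPM + 1), with white lines between the groups. Ltb is the brightest gene in the CD4cre and CD4NIKΔ columns, Lta, Cd40lg and Tnfsf11 are brightest in the CD4NIKΔ columns, and Tnfrsf14 and Tnfrsf21, both named after their values were seen, stay visible in every column.

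Members varied together across libraries. Among the 7 members other than Tnf, Tnfrsf1a and Tnfrsf1b, Spearman's rho over the 11 libraries lay between 0.67 and 0.982 for the 21 pairs, with a median of 0.891. The libraries share the gradient in T cell transcripts described above, so these values are descriptive. The genes of most similar order to each member, among 16546 and over 11 libraries, were Cd37, Dennd1c and Grap for Lta (rho 1.0), Abi3, Gimap7 and the fellow ligand Tnfsf14 for Ltb (1.0), and Btg1, Ifng and P2ry10 for Cd40lg (1.0). They were Orc3, Smu1 and Tmem50a for Tnfsf11 (0.989), Cpne3, Sit1 and Trex1 for Tnfrsf9 (0.998), Ankrd39, Arhgap30 and Asb3 for Tnfrsf25 (0.982), and Itpr3 (0.991), Map3k14 and Puf60 (both 0.982) for Cd27. Up to 8 genes tied at or above the third value. For the sparse member Tnf (Fpgs, Stil and Gm18422, 0.942 to 0.951) the order rested on a few libraries with counts, and Tnfrsf1b had none to compare.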

How the data were processed

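RNA was taken from CD4+ T cells enriched with magnetic beads and sorted by flow cytometry, and libraries were made with a SMARTer kit. The authors deposited estimated counts per gene symbol from kallisto after Trimmomatic, one column per library. The version of kallisto and the strand setting are not given in the sources used here. The submitters' processing notes name mm10, whereas the study's methods name GRCm39, so positions were taken by symbol from GENCODE M39 (93.6% of symbols matched). Between 35.3% and 41.8% of values per library were not whole and were rounded before testing.

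Groups follow the labels, which call the libraries biological replicates. Each CD4cre comparison was fitted on its own groups with edgeR 4.0.16 in R 4.3.3 (filterByExpr, TMM, robust quasi-likelihood F test, Benjamini-Hochberg over all genes tested). CD4IKK1Δ against CD4NIKΔ used all 11 libraries. Genes with an adjusted p under 0.05 and over 2-fold were called. CPM uses TMM factors, and CPM per kilobase divides it by the longest coding transcript. Alternatives were DESeq2 1.42.0, other scalings and filters, a Pan T covariate, a replicate block and left-out libraries. The fits were also run on simulated data with 200 changed genes. That simulation held no gradient in T cell transcripts, so it does not show how the fits behave under one.

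The 10 members and all gene lists were chosen with earlier results of these data known. Named are the members, up to 6 called genes with the largest change per comparison from the superfamily and adaptor lists together (members among them), Chuk and Map3k14, the 3 genes most alike in order to each member (those for Tnfrsf1a are not reported here), and markers by list. Genes named outside this rule are marked as such. No 2 libraries held identical values. Detection limits cover counting error only.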

Additional observations from a re-analysis of the deposited data

Results flagged for a closer look

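In the 5 CD4IKK1Δ libraries, a single library stood far above the others for 4 members. The gap to the nearest library, as a share of the group's range, was 1.0 for Tnf (replicate 4, 3.47 CPM, the others at 0), 1.0 for Tnfrsf1a (replicate 5, 0.315 CPM, the others at 0), 0.807 for Ltb (replicate 3, 594 CPM) and 0.723 for Tnfrsf25 (replicate 3, 17.6 CPM). Chance gives such a gap in about 1 of 20 groups of normally distributed values, which these skewed levels, in part at 0, are not. Replicate 3 also held the most Pan T counts of this group, and the part of that in the Ltb and Tnfrsf25 values was not tested.

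For 5 members the difference from CD4cre in CD4IKK1Δ and that in CD4NIKΔ themselves differed in the fit of all libraries, by -5.13 (log2) for Lta, -5.69 for Tnfsf11, -5.63 for Cd40lg, -5.46 for Tnfrsf9 and -4.18 for Tnfrsf25. These are the values of CD4IKK1Δ against CD4NIKΔ given above. All 5 genes were negative in CD4IKK1Δ and positive in CD4NIKΔ. No member passed the test for CD4IKK1Δ against CD4cre, nor for CD4NIKΔ against CD4cre in the fit of all libraries. For CD4IKK1Δ against CD4NIKΔ, none of the 5 passed with 16 Pan T markers as the scale, whereas 4 (all but Tnfrsf25) passed with all 17, Thy1 included.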

How the results depend on the processing

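All 25 members' log2 fold changes kept their direction with RLE factors, library size alone and without the low-count filter, as did the 23 that DESeq2 gave. DESeq2 left the count of risen members at 6 for CD4NIKΔ against CD4cre, beside 13.3% of all genes that it called higher. For CD4IKK1Δ against CD4NIKΔ it gave 7 in place of 5, beside 20.2% that it called lower. In the fit of all 11 libraries, 0 members and 1 superfamily gene were called for CD4NIKΔ against CD4cre, beside 12.9% of all genes. The main limits are 3 to 5 libraries a group with very unequal T cell transcripts, and levels of 3 counts or fewer cannot be told from 0.

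Scaled to all 17 Pan T markers, 1 member was called for CD4NIKΔ against CD4cre, 4 members for CD4IKK1Δ against CD4NIKΔ and 5 superfamily genes for CD4IKK1Δ against CD4cre, with 8795, 10425 and 13712 genes called in the comparisons CD4IKK1Δ against CD4cre, CD4NIKΔ against CD4cre and CD4IKK1Δ against CD4NIKΔ. The log2 fold change then turned to 0.15 for Tnfsf11 in the first, to -0.70 for Tnf, -0.52 for Ltb, -1.67 for Tnfrsf1a and -0.64 for Cd27 in the second, and to 2.74 for Tnf, 0.17 for Tnfrsf1a and 0.15 for Cd27 in the third. With this scaling and without CD4IKK1Δ replicates 1 and 2, 2 superfamily genes and 5566 genes (36.9% of all) were called in the first. In the third, 2 members and 12733 genes (78.6% of all) were called. Values turned to 0.83 for Tnfsf11 and 0.18 for Cd27 in the first and to 3.42 for Tnf, 0.18 for Ltb, 0.64 for Tnfrsf1a and 0.82 for Cd27 in the third. Scaled to 16 Pan T markers without Thy1, chosen after seeing the data, 1 member and 10675 genes (70.2% of all) were called in the second. In the third, 0 members and 14297 genes (86.4% of all) were called. Values turned to 0.47 for Tnfsf11 and 0.17 for Tnfrsf25 in the first, to -0.74 for Tnf, -0.59 for Ltb, -1.75 for Tnfrsf1a and -0.72 for Cd27 in the second, and to 3.18 for Tnf, 0.04 for Ltb, 0.67 for Tnfrsf1a and 0.67 for Cd27 in the third.

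With a Pan T score as covariate, 0 members, 0 superfamily genes and 0 genes were called in the second, and 0 members, 0 superfamily genes and 682 genes in the third. Values turned to 0.31 for Lta, 0.59 for Ltb, 2.71 for Tnfsf11, 0.14 for Cd40lg, 0.44 for Tnfrsf9 and 0.41 for Cd27 in the first, to -11.42 for Tnf, -0.07 for Lta, -0.98 for Ltb, -7.51 for Tnfrsf1a and -3.79 for Cd27 in the second, and to 9.92 for Tnf, 1.42 for Lta, 2.21 for Ltb, 1.01 for Tnfsf11, 0.45 for Tnfrsf1a, 0.32 for Tnfrsf9 and 2.22 for Cd27 in the third. The score does not overlap between the groups, so this fit has little to estimate a genotype difference from.

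For CD4IKK1Δ against CD4cre, 2 superfamily genes and 552 genes were called by DESeq2, 1 gene with RLE factors, 48 genes without the low-count filter, 1 superfamily gene and 129 genes in the fit of all libraries, and 36 genes without replicates 1 and 2. With 1 library left out at a time, the calls ranged from 0 to 23 genes for CD4IKK1Δ against CD4cre. For CD4NIKΔ against CD4cre they ranged from 4 to 7 members, 8 to 17 superfamily genes and 674 to 3468 genes, and for CD4IKK1Δ against CD4NIKΔ from 4 to 7 members, 12 to 21 superfamily genes and 4116 to 5556 genes. The log2 fold change of Tnfrsf1a for CD4NIKΔ against CD4cre ranged from -0.89 to 1.28. The causes were not tested.

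The replicate numbers gave no sign of a pairing: deviations from the group means correlated between -0.089 and 0.077 for same-numbered libraries and between -0.066 and 0.09 for others. With so few libraries a group, a pairing is not excluded by this. With a replicate block, 3 genes were called in the first comparison, 5 members, 10 superfamily genes and 1185 genes in the second and 4 members, 15 superfamily genes and 4994 genes in the third, and Tnfrsf1a turned to -0.54 in the second.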
